A study of Mus musculus with 8 samples.

Results

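The claudin tight junction genes described here are 10 of the 34 claudin genes in a table of 39179 mouse genes, namely Cldn1, Cldn2, Cldn3, Cldn4, Cldn7, Cldn8, Cldn12, Cldn15, Cldn18 and Cldn23. They were chosen by name, and each was found under a single Ensembl identifier. RNA was sequenced from 5 adenomas, benign epithelial tumours, labelled as small intestinal and taken from mice with VilCreER and 1 floxed and 1 normal allele of Apc (APCfl/+), and from 3 samples of small intestine of mice with VilCreER and no floxed allele, called wild type here. Both groups carried VilCreER, a Cre recombinase that tamoxifen activates and that the villin promoter drives in intestinal epithelium, both are labelled as having undergone tamoxifen-induced recombination, and both were on an inbred C57BL6/J background. The series' design text places the adenomas in aged mice and calls the wild-type samples whole intestine. No ages are given. Whether each library is a mouse of its own is not stated, and p-values therefore cover the spread between samples, which may be technical.

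Claudins are small proteins with 4 membrane spans that join neighbouring epithelial cells at the tight junction. Some seal the space between cells, and others form pores in it that let ions and water pass. Each epithelium makes its own mixture, and in the gut that mixture changes from crypt to villus and from stomach to colon.

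Levels are in CPM, the count of a gene scaled to a common library size after TMM, a method that sets libraries level on the bulk of their genes. Total counts ran from 19761919 to 28343915 in the adenomas and from 18040301 to 20029231 in wild type. The gut epithelium of the labels was present in each library, and the summed level of 10 pan-epithelial genes was 5842 to 10722 CPM in adenoma and 6959 to 7915 CPM in wild type. Adenoma 2 stood apart from its label. There Hoxb13, which marks the hindgut, reached 245.5 CPM, with 0.894 CPM the highest of the other adenomas and 0.167 CPM the highest in wild type. Gata4, which marks the proximal gut, had 0.470 CPM there and 68.4 CPM or more in the other 7 libraries. Pancreatic acinar genes, which mark another organ, summed to 483 CPM in adenoma 5 and 712 CPM in wild type 1 and to at most 4.04 CPM elsewhere. Xist, made from the inactive X, had 432 to 761 CPM in adenomas 2 to 5, while adenoma 1 had 1.17 CPM and wild type 1.56 to 1.75 CPM. Because the tissue is bulk, fewer cells of a type and less RNA per cell cannot be told apart in any value below.

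Promoters of 6 members are shown first, since the fold changes below differ between neighbours and near relatives. RefSeq's promoter table on GRCm38.p6 held windows of 300 bases, 250 before and 50 after a start site, for 8 of the 10 members, all but Cldn8 and Cldn23. Each line gives the strand on which the gene is read, 5′ to 3′, and capitals mark matches to CTTTGA or to CTTTGT (core of TCF/LEF sites, the DNA partners of beta-catenin), the motif TTTATG that CDX factors bind, the motif AGATAA that Gata4 and its relatives bind, or the E-box CACCTG that Snail-type repressors can bind, on either strand. Cldn4 and Cldn3 are shown because they are close neighbours on chromosome 5, Cldn2 and Cldn15 because they are both pore formers and moved in opposite directions, Cldn1 because its fold change was close to those of Cldn2 and Cldn4, and Cldn18 for its downstream start site.
Cldn4, chr5:134946885-134947184, minus strand: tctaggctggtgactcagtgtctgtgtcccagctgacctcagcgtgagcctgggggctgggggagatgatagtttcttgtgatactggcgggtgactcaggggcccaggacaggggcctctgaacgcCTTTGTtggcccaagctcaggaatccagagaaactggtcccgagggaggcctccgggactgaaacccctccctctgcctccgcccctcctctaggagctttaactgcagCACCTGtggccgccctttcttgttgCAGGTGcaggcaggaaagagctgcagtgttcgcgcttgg
Cldn3, chr5:134985964-134986263, plus strand: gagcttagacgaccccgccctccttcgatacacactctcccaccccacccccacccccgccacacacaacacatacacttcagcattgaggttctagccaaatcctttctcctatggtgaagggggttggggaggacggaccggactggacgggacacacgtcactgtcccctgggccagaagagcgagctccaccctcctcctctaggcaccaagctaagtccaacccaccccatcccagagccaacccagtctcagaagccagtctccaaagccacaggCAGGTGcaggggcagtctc
Cldn2, chrX:139800558-139800857, plus strand: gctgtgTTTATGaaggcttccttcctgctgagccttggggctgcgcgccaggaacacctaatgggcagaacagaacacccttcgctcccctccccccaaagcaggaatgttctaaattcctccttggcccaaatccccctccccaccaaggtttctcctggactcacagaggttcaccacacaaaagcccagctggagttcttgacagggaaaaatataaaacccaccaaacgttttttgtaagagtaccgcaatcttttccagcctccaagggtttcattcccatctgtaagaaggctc
Cldn15, chr5:136967619-136967918, plus strand: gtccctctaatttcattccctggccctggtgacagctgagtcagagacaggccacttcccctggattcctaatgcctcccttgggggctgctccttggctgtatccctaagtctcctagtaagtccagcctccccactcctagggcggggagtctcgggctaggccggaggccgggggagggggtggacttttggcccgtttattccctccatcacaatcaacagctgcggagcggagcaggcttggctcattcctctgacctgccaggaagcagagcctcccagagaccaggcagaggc
Cldn1, chr16:26371790-26372089, minus strand: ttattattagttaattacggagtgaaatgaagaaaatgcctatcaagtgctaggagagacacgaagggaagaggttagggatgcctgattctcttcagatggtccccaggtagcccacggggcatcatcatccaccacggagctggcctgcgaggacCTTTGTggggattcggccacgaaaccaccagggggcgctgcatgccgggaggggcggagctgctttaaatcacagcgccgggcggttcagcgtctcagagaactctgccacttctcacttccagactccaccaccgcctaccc
Cldn18, downstream start, chr9:99710014-99710313, minus strand: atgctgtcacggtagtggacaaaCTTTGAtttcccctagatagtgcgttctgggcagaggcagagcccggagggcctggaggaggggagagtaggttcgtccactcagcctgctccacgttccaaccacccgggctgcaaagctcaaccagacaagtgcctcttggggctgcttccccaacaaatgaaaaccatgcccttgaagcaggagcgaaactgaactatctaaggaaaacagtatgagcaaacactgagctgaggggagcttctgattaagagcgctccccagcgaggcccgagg
CTTTGT stood at -93 in Cldn1 and -123 in Cldn4, counted from the start site as position 1, and CTTTGA at -227 in the downstream Cldn18 promoter. Of 32817 promoters of that table, 16.0% held CTTTGA, 18.7% held CTTTGT and 31.2% held either, so a match is common. CACCTG stood on both sides of the Cldn4 start, at -14 and, on the other strand, at 12, and at 32 on the other strand in Cldn3, and 20.2% of promoters held it. TTTATG, at -244 in Cldn2, was in 11.9% of promoters, and AGATAA, found in 11.2%, had no match in the windows shown. The upstream Cldn18 window, not shown, held CTTTGA at -217 and AGATAA at -146, both on the other strand, and AGATAA at -131. A window of Cldn7, also not shown, held CACCTG at -97 and, on the other strand, at -57. The Cldn15 window held none of these motifs. The windows of Cldn12 and the other window of Cldn7, which are not shown, held none either. A match is a description of the letters and not of binding.

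Of the 10 members, 8 were called higher in adenoma, 1 was called lower and 1 did not pass the test (quasi-likelihood test of edgeR with p adjusted by Benjamini-Hochberg over all 18345 genes tested, threshold 0.05). Across all genes tested, 58.1% were called, 30.3% higher and 27.8% lower. Every member's groups were apart, with 8 members higher and 2 lower in each adenoma than in each wild-type library, against 29.3% and 27.6% of all genes tested, or 56.9% either way. The members' median log2 fold change, adenoma over wild type, was 1.54, against 0.04 for all genes tested. Cldn1, Cldn8 and Cldn18 passed the filter on low counts through the adenomas, with fewer than 3 wild-type libraries past it. The filter therefore favoured a higher level in adenoma for these genes. Of the other 7 members, 5 were higher, 1 was lower and 1 was not called, with a median log2 fold change of 0.64. Without adenoma 2 the count over the 10 was again 8 higher and 1 lower, and without wild type 1, adenoma 2 and adenoma 5 together it was the same. When libraries were scaled to equal summed counts of the pan-epithelial genes, 4 members were higher and 1 was lower.

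**Figure D1:**
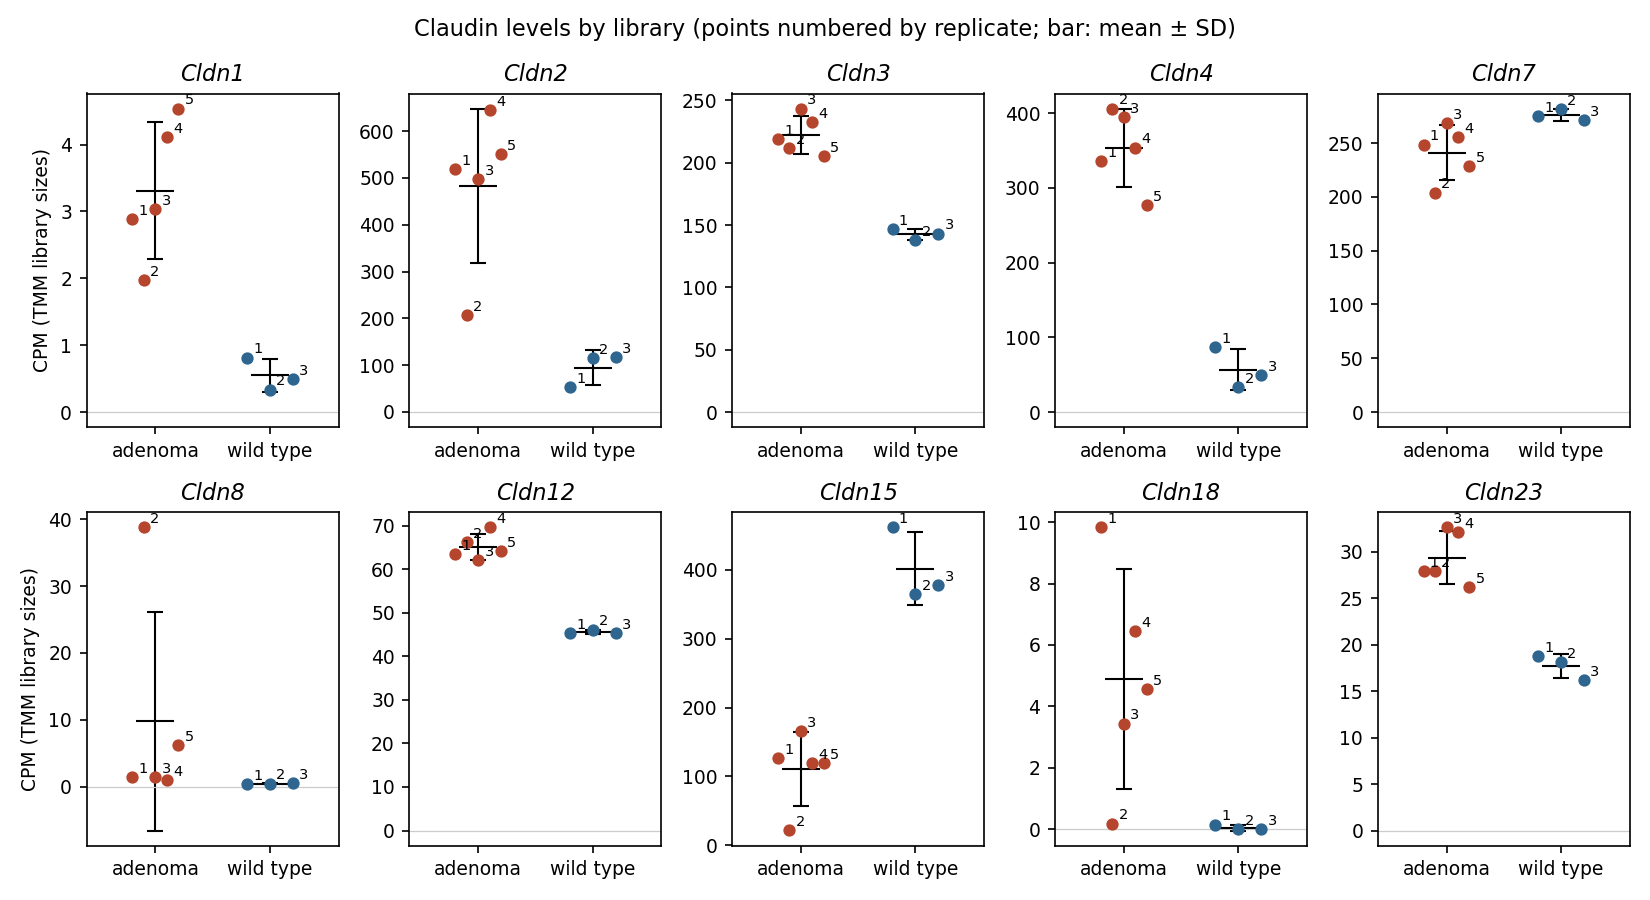
Level of each claudin in CPM (vertical axis, from TMM library sizes) in 5 adenomas (left) and 3 wild-type libraries (right), numbered by replicate, with the mean and SD as bars. Cldn15 and Cldn7 are the panels in which each adenoma lies below each wild-type library, and among the adenomas adenoma 2 is the highest for Cldn8, at 38.8 CPM, and the lowest for Cldn2, Cldn15 and Cldn18.

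The pore-forming claudins of the gut moved in opposite directions. Cldn2 (ENSMUSG00000047230, GRCm38 chromosome X, 139800828 to 139811386, plus strand) forms a pore for small cations and water and in mouse intestine is made mainly in crypts and early in life. It was at 518, 207, 497, 644 and 550.5 CPM in adenomas 1 to 5, against 52.5, 115 and 117 CPM in wild type 1 to 3. Adenoma 2 was the lowest adenoma and still above each wild-type library, of which wild type 1 was the lowest. The mean was 483 ± 165 CPM in adenoma and 94.9 ± 36.7 CPM in wild type (SD, n = 5 and n = 3), a log2 fold change of 2.35 ± 0.42 (SE; edgeR adjusted p = 0.00182), or 5.10-fold. Cldn2 is X-linked. Xist was low in each wild-type library and in adenoma 1 and high in the other adenomas, so its pattern nearly follows the groups. Adenoma 1 had 518 CPM of Cldn2. Of the adenomas with high Xist, adenomas 3, 4 and 5 had 497 to 644 CPM and adenoma 2 had 207 CPM. With the Xist pattern as a covariate the Cldn2 log2 fold change was 2.45, in a fit where the group difference rests on adenoma 1 alone. Beyond that fit, the part of the Xist pattern in the Cldn2 level was not tested.

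Cldn15 (ENSMUSG00000001739, chromosome 5, 136966616 to 136975858, plus strand), the main cation-pore claudin of mouse small intestine, whose loss in mice enlarges the upper small intestine, fell. It was at 126, 21.6, 166, 119 and 119.8 CPM in adenomas 1 to 5, against 462, 364 and 378 CPM in wild type 1 to 3. Each adenoma was below each wild-type library, and adenoma 2 was far below the other adenomas. The mean was 111 ± 53.4 CPM in adenoma and 401 ± 52.7 CPM in wild type, a log2 fold change of -1.86 ± 0.51 (edgeR adjusted p = 0.0147). Without adenoma 2 the log2 fold change was -1.603 (edgeR adjusted p = 1.44e-05). The call was lost without wild type 1 and adenoma 5 together, at a log2 fold change of -1.77 (edgeR adjusted p = 0.0815), and with the Xist pattern as a covariate, at -1.67 (adjusted p = 0.223). Of 8 villus enterocyte markers, 5 were called lower and 0 higher, against 27.8% and 30.3% of all genes tested. They summed to 84.9 CPM in adenoma 2 and 5333 to 9767 CPM in the other adenomas. In wild type they summed to 17668 to 29391 CPM, and their part in the fall of Cldn15 was not tested.

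The ratio of Cldn2 to Cldn15 within a library hardly depends on how libraries are scaled. Its log2 value was 2.03, 3.26, 1.58, 2.43 and 2.20 in adenomas 1 to 5, against -3.13, -1.66 and -1.69 in wild type 1 to 3. So Cldn2 counts exceeded Cldn15 counts in each adenoma, and Cldn15 counts exceeded Cldn2 counts in each wild-type library. The means, 2.30 ± 0.62 in adenoma and -2.16 ± 0.84 in wild type, differed by 4.46 on the log2 scale (exact permutation test over libraries, two-sided, p = 0.0357, the smallest this design allows). Each adenoma was above each wild-type library for Cldn2 and below each for Cldn15. The groups of the ratio therefore had to be apart, and its p adds no support to the results of the single genes.

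**Figure D2:**
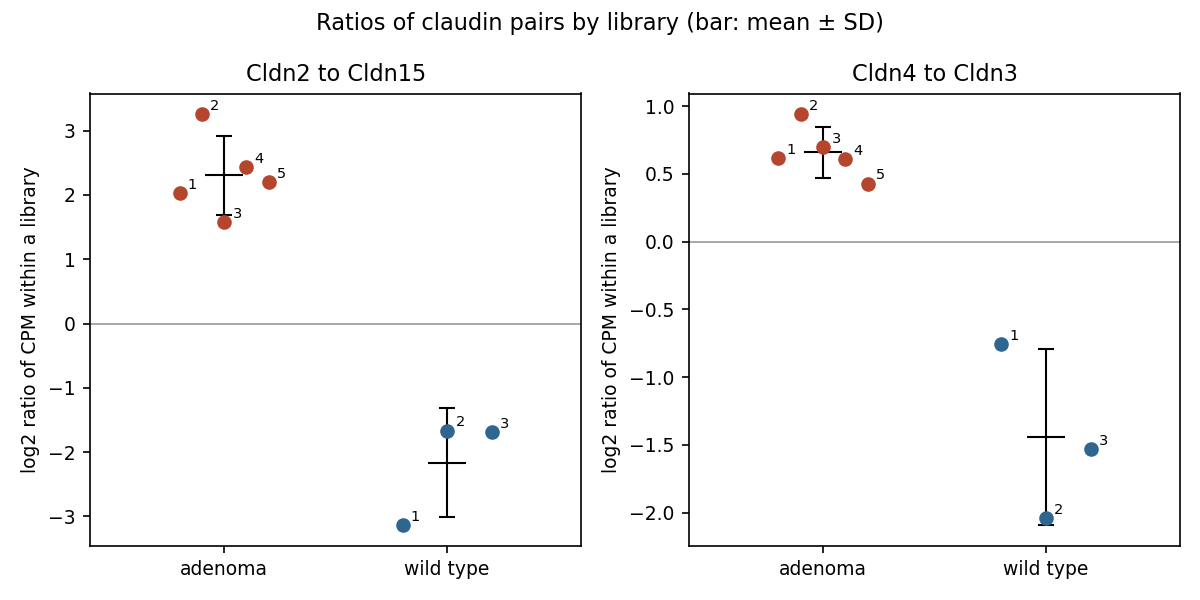
Log2 ratio of CPM within a library (vertical axes) of Cldn2 to Cldn15 and of Cldn4 to Cldn3, in adenomas (left in each panel) and wild type (right), numbered by replicate, with mean and SD. Both ratios are above 0 in each adenoma and below 0 in each wild-type library.

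Of the claudins that tighten the junction, Cldn4 rose 6.26-fold and its neighbour Cldn3 1.56-fold, and Cldn7 did not pass the test. Cldn4 (ENSMUSG00000047501, chromosome 5, 134945119 to 134946934, minus strand), a sealing claudin and a receptor for Clostridium perfringens enterotoxin, was at 336, 406, 395, 354 and 277 CPM in adenomas 1 to 5, against 86.8, 33.3 and 49.4 CPM in wild type 1 to 3. The lowest adenoma, adenoma 5, was above the highest wild-type library, wild type 1, and these are the libraries with pancreatic RNA. The mean was 354 ± 51.8 CPM in adenoma and 56.5 ± 27.4 CPM in wild type, a log2 fold change of 2.65 ± 0.31 (edgeR adjusted p = 2.05e-04), or 6.26-fold. Without wild type 1 and adenoma 5 the log2 fold change was 3.18 (edgeR adjusted p = 6.89e-04).

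Cldn3 (ENSMUSG00000070473, chromosome 5, 134986214 to 134987472, plus strand) lies 39280 bases from Cldn4, is also a receptor for that enterotoxin and also seals. It was at 219, 211, 243, 232 and 206 CPM in adenomas 1 to 5, against 146, 138 and 143 CPM in wild type 1 to 3, 2 narrow groups that did not meet. Its log2 fold change was 0.64 ± 0.09 (edgeR adjusted p = 5.91e-04), or 1.56-fold. The log2 ratio of Cldn4 to Cldn3 was 0.62, 0.94, 0.70, 0.61 and 0.43 in adenomas 1 to 5, against -0.76, -2.04 and -1.53 in wild type 1 to 3. Cldn4 was thus above Cldn3 in counts in each adenoma and below it in each wild-type library. The mean ratios, 0.66 ± 0.19 in adenoma and -1.44 ± 0.65 in wild type, differed by 2.10 (exact permutation test, two-sided, p = 0.0357, again the smallest possible). The lowest Cldn4 of the adenomas, 277 CPM, was above their highest Cldn3, 243 CPM. In wild type the highest Cldn4, 86.8 CPM, was below the lowest Cldn3, 138 CPM. The groups of this ratio therefore also had to be apart, and its p adds no support to the results of the single genes. Each of these genes is a single exon block, and 40 bases of Cldn3 overlap an exon of Wbscr25 on the other strand, which this kit cannot separate.

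Cldn7 (ENSMUSG00000018569, chromosome 11, 69964779 to 69967885, plus strand), which sits along the sides of gut epithelial cells and binds EpCAM, was at 249, 204, 269, 256 and 228 CPM in adenomas 1 to 5, against 275, 282 and 272 CPM in wild type 1 to 3. Each adenoma was below each wild-type library, by little in adenoma 3. The log2 fold change was -0.20 ± 0.11 (edgeR adjusted p = 0.160), and Cldn7 was called lower under upper-quartile scaling, at -0.28 (adjusted p = 0.0350), and where genes under 5 CPM were left out, at -0.30 (adjusted p = 0.0236).

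Cldn1 (ENSMUSG00000022512, chromosome 16, 26356642 to 26371841, minus strand), the claudin that the skin barrier of mice needs, was scarce. It was at 2.89, 1.97, 3.04, 4.11 and 4.54 CPM in adenomas 1 to 5, against 0.815, 0.334 and 0.491 CPM in wild type 1 to 3, or 42 to 134 counts per adenoma and 6 to 16 per wild-type library. Each adenoma was above each wild-type library. The log2 fold change was 2.58 ± 0.39 (edgeR adjusted p = 7.08e-04), which puts Cldn1 beside Cldn2 and Cldn4 in size of change and far below them in level.

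Cldn23 and Cldn12, like Cldn3, had fold changes below those of the other members called higher. Cldn23 (ENSMUSG00000055976, chromosome 8, 35824712 to 35826559, minus strand), described in the gut as a claudin of differentiated surface cells, was at 27.97, 27.9, 32.7, 32.1 and 26.2 CPM in adenomas 1 to 5, against 18.7, 18.2 and 16.2 CPM in wild type 1 to 3, a log2 fold change of 0.73 ± 0.11 (edgeR adjusted p = 6.85e-04). Cldn12 (ENSMUSG00000046798, chromosome 5, 5489537 to 5514958, minus strand), an unusual claudin without the tail that binds ZO proteins, was at 63.5, 66.3, 62.1, 69.7 and 64.3 CPM in adenomas 1 to 5, against 45.4, 46.1 and 45.4 CPM in wild type 1 to 3. Its log2 fold change was 0.51 ± 0.07 (edgeR adjusted p = 3.96e-04). In each case the groups were narrow and apart.

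The calls of Cldn3, Cldn12 and Cldn23 were lost under pan-epithelial scaling (edgeR), and that of Cldn8 under it (adjusted p = 0.0991) and under upper-quartile scaling (adjusted p = 0.0511). Scaling by pan-epithelial genes moved the median of all genes by -0.23, to -0.19. The log2 fold changes under it were 0.40 for Cldn3, 0.29 for Cldn12 and 0.49 for Cldn23. Relative to that median they were 0.59, 0.48 and 0.68, values in which the shift of all genes is taken out again. None of Cldn3, Cldn12 and Cldn23 was called under that scaling (edgeR adjusted p = 0.146, 0.375 and 0.125). Cldn2 was at 2.00, Cldn4 at 2.46, Cldn1 at 2.32 and Cldn15 at -2.23 under it, and these 4 were called, as was Cldn18. Relative to the median these 4 were at 2.19, 2.65, 2.51 and -2.04. The calls belong to the values under the scaling and not to those relative to the median.

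**Figure D3:**
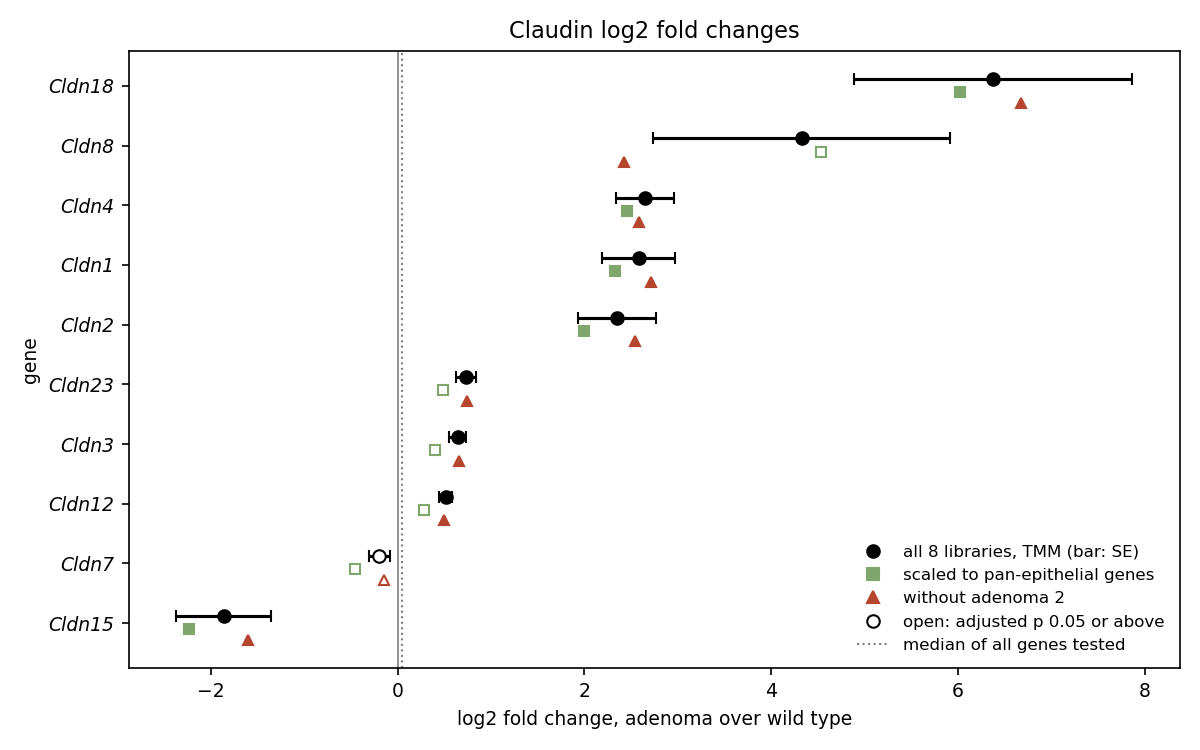
Log2 fold change of each claudin, adenoma over wild type (horizontal axis), with all 8 libraries (circles, bars SE), with pan-epithelial scaling (squares) and without adenoma 2 (triangles), open where the adjusted p was 0.05 or above. Cldn4, Cldn1 and Cldn2 stay near 2 to 3 in each fit shown, whereas Cldn8 drops to 2.42 without adenoma 2.

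Cldn8 and Cldn18, claudins of other parts of the gut, were near 0 in wild type and varied most among the adenomas. Cldn8 (ENSMUSG00000050520, chromosome 16, 88560828 to 88563183, minus strand), a sealing claudin of the distal colon and the distal nephron, was at 1.54, 38.8, 1.47, 1.08 and 6.26 CPM in adenomas 1 to 5, against 0.407, 0.502 and 0.546 CPM in wild type 1 to 3. Adenoma 2 was highest by far and adenoma 5 next, and each adenoma was above wild type. The log2 fold change was 4.33 ± 1.59 (edgeR adjusted p = 0.0472), and without adenoma 2 it was 2.42 (adjusted p = 0.0224). Without wild type 1, adenoma 2 and adenoma 5 together it was 1.37 (adjusted p = 0.00910). The call failed in 11 alternatives, among them leaving out any wild-type library (edgeR adjusted p = 0.116 to 0.124), leaving out adenoma 5 (0.0635) and limma-voom (0.208). Hindgut markers summed to 437 CPM in adenoma 2 and to 5.08 to 9.56 CPM in the other adenomas, against 7.23 to 9.59 CPM in wild type. Of the 5 found, 2 were tested and 1 was called higher, where 30.3% of all genes tested were. In adenoma 5, the next highest for Cldn8, the hindgut sum was 6.53 CPM and Hoxb13 0.135 CPM.

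Cldn18 (ENSMUSG00000032473, chromosome 9, 99689461 to 99717267, minus strand) is made from an upstream start site in lung and from a downstream one in stomach, and counts per gene do not separate these transcripts. It was at 9.83, 0.188, 3.44, 6.44 and 4.57 CPM in adenomas 1 to 5, against 0.153, 0 and 0 CPM in wild type 1 to 3. Adenoma 2, with 4 counts, was close to wild type 1, with 3 counts, and the other adenomas had 77 to 211 counts. The ratio of summed counts per library size was 91.1, with a 95% counting interval of 31.0 to 443 (exact binomial), and the fitted log2 fold change was 6.37 ± 1.49 (edgeR adjusted p = 0.00722). The call was lost by limma-voom (adjusted p = 0.0906) and without wild type 1 and adenoma 5 (edgeR adjusted p = 0.0527). All 7 gastric markers were called higher, against 30.3% of all genes tested. Their sums were 861, 26.0, 686, 1561 and 1619 CPM in adenomas 1 to 5, likewise lowest among the adenomas in adenoma 2. In wild type the sums were 6.97 to 9.62 CPM. Their order among the adenomas was not that of Cldn18, since adenoma 1 had the highest Cldn18 and adenoma 5 the highest gastric sum. The part of either marker list in these levels was not tested. Without wild type 1 no count is left in wild type, and the fitted value then sets no fold.

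**Figure D4:**
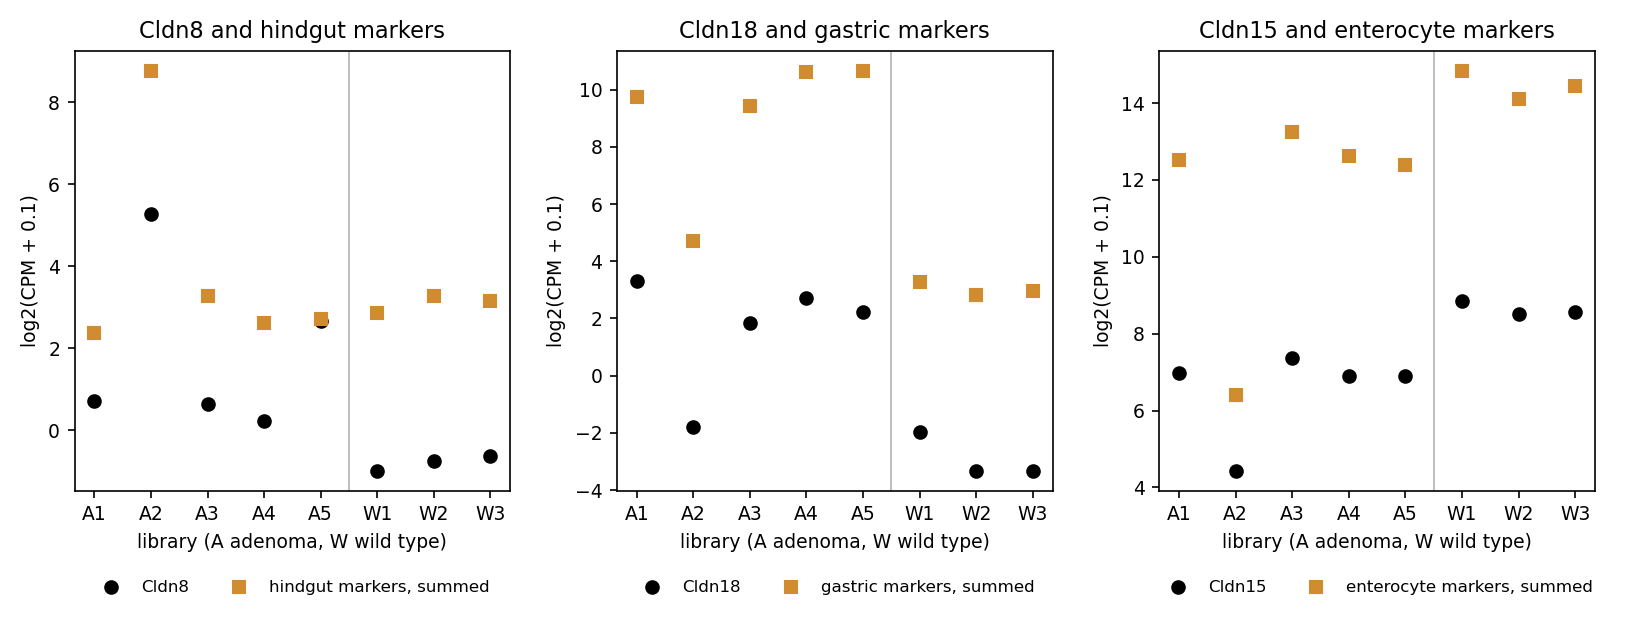
Cldn8, Cldn18 and Cldn15 (circles) and summed hindgut, gastric and enterocyte markers (squares) in each library, as log2(CPM + 0.1) on the vertical axes, with adenomas A1 to A5 left of the line and wild type W1 to W3 right of it. Adenoma 2 holds the highest hindgut sum, 437 CPM, and the lowest gastric and enterocyte sums among the adenomas, 26.0 and 84.9 CPM.

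Spread among the adenomas differed between the members, and the order was another in wild type. The coefficient of variation over the 5 adenomas was 4.51% for Cldn12, 6.93% for Cldn3, 9.70% for Cldn23, 10.5% for Cldn7 and 14.6% for Cldn4. It was 30.9% for Cldn1, 34.0% for Cldn2, 48.3% for Cldn15, 73.1% for Cldn18 and 166% for Cldn8. Over the 3 wild-type libraries it was 0.969% for Cldn12, 3.11% for Cldn3, 7.51% for Cldn23, 1.94% for Cldn7 and 48.5% for Cldn4. There it was 44.8% for Cldn1, 38.7% for Cldn2, 13.1% for Cldn15, 173% for Cldn18 and 14.6% for Cldn8. Adenoma 2 was the lowest adenoma for Cldn1, Cldn2, Cldn7, Cldn15 and Cldn18 and the highest for Cldn4 and Cldn8.

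Levels of different claudins were compared per kilobase of exon, using the joined exons of GENCODE M21. In adenoma the order was Cldn4 at 195 ± 28.5, Cldn3 at 177 ± 12.2, Cldn2 at 145 ± 49.5, Cldn7 at 124 ± 13.0 and Cldn15 at 52.1 ± 25.1 CPM per kb (SD, n = 5). Over adenomas the ranges of Cldn4, Cldn3 and Cldn2 overlapped, as did those of Cldn2 and Cldn7. In wild type the order was Cldn15 at 189 ± 24.8, Cldn7 at 142 ± 2.76, Cldn3 at 113 ± 3.52, Cldn4 at 31.1 ± 15.1 and Cldn2 at 28.5 ± 11.04 CPM per kb (SD, n = 3). The ranges of Cldn4, 18.4 to 47.8, and Cldn2, 15.8 to 35.3, overlapped, while Cldn15, Cldn7 and Cldn3 did not overlap each other. Among the members Cldn15 was at rank 5 in each adenoma but adenoma 2, where it was at rank 8, and at rank 1 in each wild-type library. Cldn12 and Cldn23 were at 15.4 and 15.9 CPM per kb in adenoma and at 10.8 and 9.58 in wild type. Cldn8, Cldn18 and Cldn1 were at 4.17, 1.10 and 0.683 in adenoma and at 0.206, 0.0114 and 0.113 in wild type.

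The claudin mixture differed in make-up as well as amount. All 34 claudin genes together came to 623 to 814 CPM per kb in adenoma and 502 to 564 in wild type, groups that did not overlap. The 10 members made up 98.9% to 99.7% of it in adenoma and 99.2% to 99.4% in wild type. Cldn15 took 6.89% ± 3.08 of the mixture in adenoma and 35.7% ± 2.44 in wild type. Cldn4 took 26.8% ± 5.35 in adenoma and 5.80% ± 2.45 in wild type, and Cldn2 took 19.5% ± 5.84 in adenoma and 5.50% ± 2.34 in wild type. The share of Cldn7 was 16.9% ± 0.306 in adenoma and 26.9% ± 1.90 in wild type, and that of Cldn3 was 24.2% ± 1.57 in adenoma and 21.5% ± 0.743 in wild type. Cldn12, at 2.12% ± 0.261 in adenoma and 2.05% ± 0.137 in wild type, kept overlapping shares. These shares are fixed to add up.

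**Figure D5:**
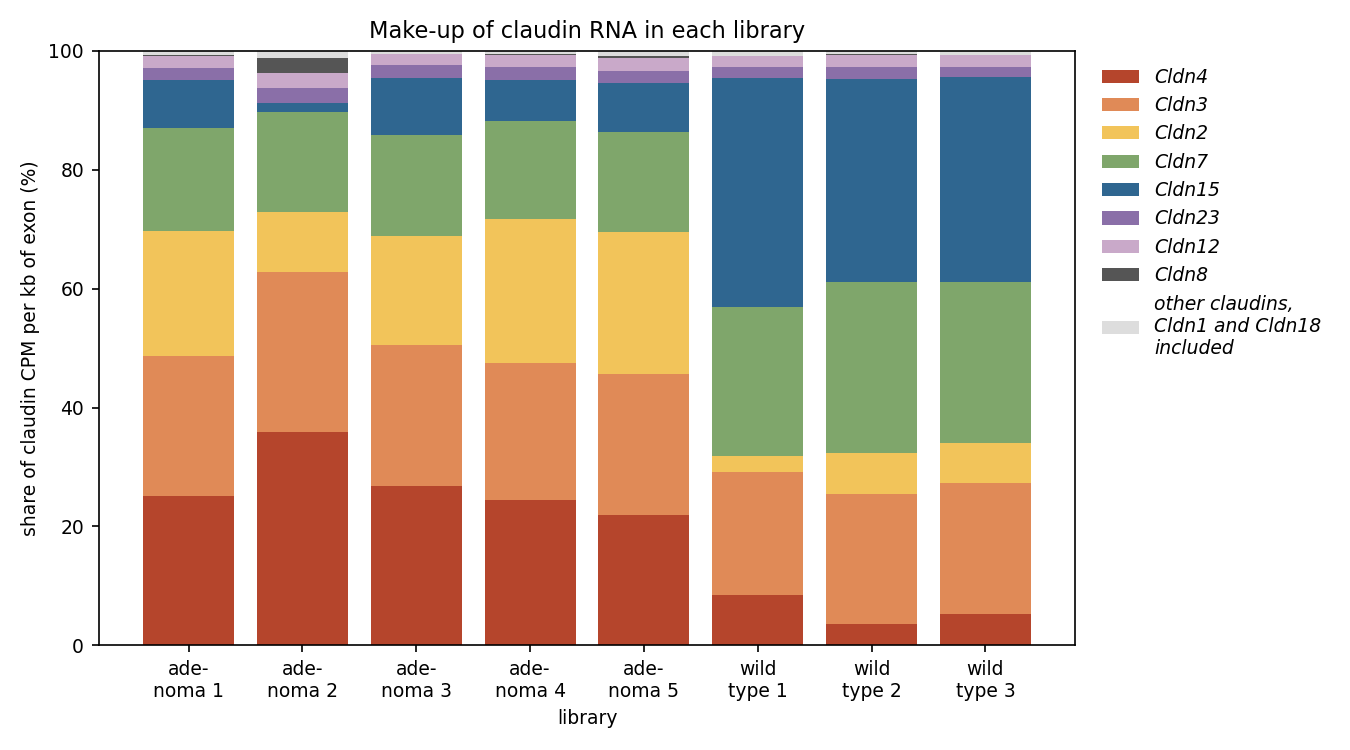
Share of each claudin in the summed claudin level per kb of exon (vertical axis, percent) in each library, adenomas left and wild type right. The Cldn15 segment is 1.63% to 9.60% in adenoma and 34.1% to 38.5% in wild type, and the Cldn4 segment at the foot is 22.0% to 35.9% in adenoma and 3.65% to 8.47% in wild type.

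Of the 24 other claudin genes, 8 had no count in any library, 14 had at most 63 counts in all and were not tested, and 2 were tested. Cldn6, a claudin of embryonic epithelium, was at 0.606, 0.845, 1.92, 0.692 and 1.56 CPM in adenomas 1 to 5, against 0.102, 0.0557 and 0.164 CPM in wild type 1 to 3. Its log2 fold change was 3.33 ± 0.62 (edgeR adjusted p = 0.00197) on 136 counts in adenoma and 6 in wild type, and the ratio of summed counts, 10.8, has a 95% counting interval of 4.82 to 29.8. Like Cldn18 it passed the filter through the adenomas alone. Cldn5, the claudin of blood vessel endothelium, was at 2.75, 6.06, 1.88, 1.5997 and 2.44 CPM in adenomas 1 to 5, against 3.67, 1.95 and 2.29 CPM in wild type 1 to 3. Its groups overlapped, at a log2 fold change of 0.15 ± 0.45 (edgeR adjusted p = 0.784). Of 6 endothelial markers, 4 were called higher, against 30.3% of all genes tested. They summed to 145 to 239 CPM in adenoma and 137 to 158 CPM in wild type. Adenoma 2, highest for Cldn5, had the lowest endothelial sum of the adenomas. Cldn14, named after its values were seen, had 43 of its 46 adenoma counts in adenoma 2 and 3 counts in wild type.

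Other tight junction genes were called in both directions, as were all genes tested, of which 30.3% were higher and 27.8% lower. Of 13 membrane proteins of the junction other than claudins, 5 passed the test as higher and 0 as lower, and the median log2 fold change was 0.23. F11r, which encodes the adhesion molecule JAM-A, was at 186 ± 16.6 CPM in adenoma and 127 ± 6.18 CPM in wild type (log2 fold change 0.55 ± 0.10, edgeR adjusted p = 0.00195). Lsr, a receptor that builds junctions where 3 cells meet, was at 135 ± 30.3 CPM in adenoma and 79.2 ± 1.88 CPM in wild type (adjusted p = 0.00842), and Marveld2 (tricellulin), of the same site, at 32.9 ± 2.31 CPM in adenoma and 25.9 ± 1.83 CPM in wild type (adjusted p = 0.0126). Ildr1, related to Lsr, rose by 2.88 ± 0.71 on the log2 scale (edgeR adjusted p = 0.00996), where adenoma 2 held 59.7 CPM, the other adenomas 9.65 to 15.9 CPM and wild type 2.56 to 3.66 CPM. Occludin (Ocln), named after its values were seen, had overlapping groups, at 115 ± 11.1 CPM in adenoma and 128 ± 13.3 CPM in wild type (adjusted p = 0.233).

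Of 20 scaffold and polarity genes, 7 passed as higher and 7 as lower, and the median log2 fold change was -0.01. Cgnl1 (paracingulin), which links junctions to the cytoskeleton, was at 102 ± 21.5 CPM in adenoma and 9.78 ± 1.04 CPM in wild type (log2 fold change 3.38 ± 0.20, edgeR adjusted p = 1.20e-05). Amotl1, of the angiomotin family, was at 123 ± 14.9 CPM in adenoma and 35.3 ± 0.407 CPM in wild type (edgeR adjusted p = 1.74e-05). Magi3, a scaffold with PDZ domains, fell to 75.2 ± 6.74 CPM in adenoma, against 134 ± 14.2 CPM in wild type (edgeR adjusted p = 2.33e-04), and Tjap1 fell to 16.3 ± 1.22 CPM in adenoma, against 26.3 ± 1.35 CPM in wild type (adjusted p = 3.91e-04). Tjp1, which encodes ZO-1 and is named after its values were seen, was at 132 ± 11.7 CPM in adenoma and 149 ± 9.19 CPM in wild type (adjusted p = 0.157). Over the 33 genes of these lists, 12 were higher and 7 lower, and 15 and 11 without adenoma 2. The share called over all genes tested was 58.1%, and 67.5% without adenoma 2, so these counts are not read as particular to the junction.

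Genes of EpCAM, which binds claudin-7, and of the membrane proteases and inhibitors around it had 5 of 6 higher and 1 lower, and their median log2 fold change was 0.57. Epcam was at 1529.7 ± 307 CPM in adenoma and 1001 ± 111 CPM in wild type (log2 fold change 0.61 ± 0.20, edgeR adjusted p = 0.0293), with overlapping groups. The protease gene Prss8 and the inhibitor gene Spint2 rose by 0.70 and 0.53 on the log2 scale (adjusted p = 0.00125 and 0.00865), and the inhibitor gene Spint1 fell by 0.35 (adjusted p = 0.0451). Of 13 transcription factors described as acting on claudin genes, 5 were higher and 3 lower, and the median log2 fold change was -0.25. Over all genes tested, 30.3% were called higher and 27.8% lower. Tcf7 and Lef1, DNA partners of beta-catenin, rose by 1.46 and 2.95 on the log2 scale (edgeR adjusted p = 4.24e-04 and 0.00104), Grhl2 by 1.06 (6.26e-04) and the Snail repressor gene Snai1 by 1.39 (0.00238), at 1.90 ± 0.406 CPM in adenoma and 0.720 ± 0.139 CPM in wild type. Tcf7l2 fell by 1.26 on the log2 scale (adjusted p = 0.00504).

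Markers of other cell types also differed between the groups, as did 58.1% of all genes tested. Pan-epithelial genes had 7 of 10 higher and 1 lower, Paneth cell markers 1 of 5 higher and 4 lower, goblet cell markers 1 of 5 higher and 3 lower, and cycling cell markers 1 of 6 higher and 1 lower. Fibroblast markers, 4 of 5 higher, summed to 1464 to 1870.2 CPM in adenoma and 529 to 695 CPM in wild type. Smooth muscle markers, 3 of 5 lower, summed to 227 to 585 CPM in adenoma and 668 to 1263 CPM in wild type, and leukocyte markers, 4 of 5 lower, to 106 to 156 CPM in adenoma and 237 to 339.9 CPM in wild type. Glia and nerve markers had 1 of 5 higher and 3 lower. None of the listed markers found in the table was at 0 in every library, and the part of these differences in the claudin levels was not tested.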

How the data were processed

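RNA of 5 adenoma and 3 wild-type samples was sequenced; per the labels' protocols, RNA came from RNeasy kits, libraries from TruSeq RNA v2, an unstranded kit, and paired reads from a NextSeq. The authors deposited raw counts for each gene. Reads were handled with HTSeq, TopHat2 and FastQC on GRCm38, per the submitters' processing notes; their versions, the annotation and the strand option were not given in the sources used here. Symbols and positions came from GENCODE M21 (GRCm38), matching 37693 of 39179 identifiers, and all columns were used.

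Counts were tested with edgeR 4.0.16 in R 4.3.3: filterByExpr by group (18345 genes kept), TMM scaling, robust quasi-likelihood fits, Benjamini-Hochberg adjustment at 0.05. Log2 CPM values used a prior count of 2, and the SE is the log2 fold change divided by the square root of F. Counting intervals cover counting error only. The fit was tested on simulated data. No pair of libraries of the same group agreed within sampling noise (chi-square per degree of freedom 20.1 to 149).

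Alternatives were RLE, upper-quartile, total-count and pan-epithelial scaling, no filter and a 5 CPM filter in 3 libraries, a replicate block, left-out libraries, leaving out 4 genes that collect ribosomal RNA reads, the Xist pattern as a covariate, DESeq2 1.42.0 and limma-voom (limma 3.58.1). The members and lists were chosen with earlier results of these data known. Genes named are the members, the other claudins tested, and up to 4 called genes of each list by adjusted p plus the leading gene of the minority direction; part of them is given, and 1 gene is not reported here.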

Additional observations from a re-analysis of the deposited data

Results flagged for a closer look

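Outlying libraries were looked for among the 5 adenomas in 14 sets of values, namely the 10 members, Cldn5, Cldn6 and the 2 ratios, by the gap between the extreme library and its neighbour divided by the range of the set, with Dixon's critical value of 0.71. Chance alone gives about 1 such library in 20 sets. In 2 sets an adenoma exceeded it, and in each it was adenoma 2.

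Cldn8 stood at 38.8 CPM in adenoma 2, against 6.26 CPM in the next adenoma and 1.08 CPM in the lowest, a gap of 0.863 of the range. Cldn5 stood at 6.06 CPM in adenoma 2, against 2.75 CPM in the next adenoma and 1.5997 CPM in the lowest, a gap of 0.742 of the range.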

How the results depend on the processing

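Over 207 combinations of a member and an alternative, 186 kept the direction and the call, 19 kept the direction and lost the call, 2 gained a call and 0 changed direction. Cldn2 and Cldn4 kept their calls in the 21 alternatives, and Cldn1 in the 20 that tested it, since the 5 CPM filter removed it. Of the 19 lost calls, 11 were of Cldn8, 3 of Cldn15, 2 of Cldn18 and 1 each of Cldn3, Cldn12 and Cldn23. The cause of these changes was not tested unless named.

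Members called higher, 8 in the fit reported, were 4 with pan-epithelial scaling and 5 with the 5 CPM filter, which left 7 members to test, and 7 to 8 when 1 library was left out. Members called lower, 1 in the fit reported, were 2 with upper-quartile scaling and with the 5 CPM filter, and 0 with the replicate block, without wild type 1 and adenoma 5 together and with the Xist pattern as a covariate (edgeR adjusted p of Cldn15 0.0660, 0.0815 and 0.223; 1, 1 and 0 members lower at an unadjusted p below 0.05). Other tight junction genes called higher, 12, were 6 with pan-epithelial scaling, 5 with the block, 6 without wild type 1 and adenoma 5, 7 with the Xist covariate and 9 to 15 when 1 library was left out. Those called lower, 7, were 3 with the covariate, 6 to 11 when 1 library was left out (11 without adenoma 2) and 11 without wild type 1, adenoma 2 and adenoma 5, chosen after seeing the data. Of the other claudins, 1 was called higher, Cldn6, but 0 with the 5 CPM filter, which left none of them to test, and 0 with the covariate (edgeR adjusted p = 0.0548; 1 at an unadjusted p below 0.05). A claudin called lower, Cldn20, appeared without the 4 ribosomal RNA genes, which let it pass the filter. Cldn5 changed direction without wild type 2 (log2 fold change -0.01), without adenoma 2 (-0.29) and without wild type 1, adenoma 2 and adenoma 5 (-0.034), and ran from -0.29 to 0.47 when 1 library was left out, never called.

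All genes called, 10657, were 6301 with pan-epithelial scaling, of which 30.0% were higher against 52.2% in the fit reported, 6549 with the block and 5372 with the covariate. The Cldn2 to Cldn15 difference was 3.98 to 4.71 and the Cldn4 to Cldn3 difference 1.80 to 2.45 when 1 library was left out, and 4.00 and 2.50 without wild type 1 and adenoma 5; these designs cannot reach p below 0.05. Libraries that share a replicate number hardly deviated together (correlations -0.02, 0.05 and 0.06), though the best match of wild type 3 was adenoma 3. Adenomas 4 and 5 have no wild-type library of their number, so the block leaves them out of the group difference. The calls of Cldn8 and Cldn15 were lost with the block, for a reason that was not tested.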
